A study of Mus musculus with 6 samples.

Results

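The miRNA repertoire of dendritic cell-primed CD8+ T cells was described from 3 samples, each a qPCR profile of 306 assays with mouse miRNA names. An assay was a member of the repertoire when it had a threshold cycle (Ct) in all 3 samples, which 298 of the 306 did. Of these, 242 had a Ct below 35 in all 3 samples and form the basis of every ranking, and 56 reached 35 or later in at least 1 sample and were set apart as late. The whole series holds 350 miRNA assays in 6 samples. All samples are CD8+ T cells of pMel-1 mice, whose transgenic T cell receptor recognises the melanoma antigen gp100. The 3 samples of the DC-primed group were activated in culture for 3 days by bone marrow-derived dendritic cells matured with LPS. The other 3, the B cell-primed group, were activated for the same time by splenic B cells loaded with the peptide hgp100(25-33). Each group has 1 sample from each of rounds 1, 2 and 3. The labels give no strain, age or sex, do not state that the rounds are separate mice or cultures, and leave unsaid whether the priming cells were removed before RNA extraction. Spread between rounds may therefore be partly technical, and RNA of remaining dendritic cells would be measured together with that of the T cells.

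MicroRNAs are short RNAs cut by Dicer from a hairpin precursor. One strand of the hairpin, the guide, is usually kept by an Argonaute protein and pairs through its seed, bases 2 to 8, with messenger RNAs that it represses, while the other strand, written with a star in the older names used here, is usually degraded. In CD8+ T cells, activation is known to raise miR-155, miR-21 and the miR-17/92a cluster and to lower miR-150, the let-7 family and much of the rest of the repertoire.

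The sequences below are those on which the description turns. RefSeq (mouse assembly GRCm38.p6) gave a mature sequence for 197 of the 242 members, or 81.4%, and for 17 of the 20 highest. Capitals mark the seed. First come the 8 of the 10 highest members that had a sequence. The other strand of let-7g and of miR-7a stands beside them, since the starred and unstarred assays behaved differently.
miR-21: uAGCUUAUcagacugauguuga
let-7g*: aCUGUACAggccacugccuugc
let-7g: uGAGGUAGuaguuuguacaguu
miR-326: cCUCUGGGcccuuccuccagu
miR-691: aUUCCUGAagagaggcagaaaa
miR-7a*: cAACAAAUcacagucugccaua
miR-7a: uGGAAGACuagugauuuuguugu
miR-154: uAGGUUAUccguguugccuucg
miR-139-3p: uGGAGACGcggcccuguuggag
miR-155: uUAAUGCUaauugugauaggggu

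The let-7 family, the largest group of members with a common seed, follows, shown because its 8 sequences are so alike that one forward primer could amplify several of them. Against let-7a, let-7c, let-7e and let-7f differ at 1 of 22 bases, let-7b, let-7d and let-7g at 2, and let-7i at 4. let-7g is among the sequences above.
let-7a: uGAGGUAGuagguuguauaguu
let-7b: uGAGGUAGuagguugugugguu
let-7c: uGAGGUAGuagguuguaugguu
let-7d: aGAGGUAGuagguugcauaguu
let-7e: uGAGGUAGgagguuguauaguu
let-7f: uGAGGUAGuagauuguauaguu
let-7i: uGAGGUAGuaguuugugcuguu

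Last are members of the miR-15/16 and miR-29 families and miR-222, shown because their Ct moved far between rounds, and the star strand of miR-16, whose Ct hardly moved. miR-15a, miR-15b and miR-16 have one seed, as do miR-29a and miR-29c, which differ at 1 base.
miR-15a: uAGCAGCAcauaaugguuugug
miR-15b: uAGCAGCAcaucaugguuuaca
miR-16: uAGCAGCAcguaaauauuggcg
miR-16-1*: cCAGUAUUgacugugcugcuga
miR-29a: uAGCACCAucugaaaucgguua
miR-29c: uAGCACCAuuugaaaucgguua
miR-222: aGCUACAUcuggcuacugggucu

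Levels are given as the deposited dCt with its sign turned. A level of 0 is the authors' per-sample number, 1 unit is 1 cycle or a 2-fold difference at full amplification, and higher means more miRNA. The assays differ in efficiency by an unknown amount, so the order of different miRNAs is approximate. That per-sample number differed between rounds: it was 26.18, 28.46 and 30.46 cycles in rounds 1, 2 and 3, a range of 4.27 cycles, against a range of 1.28 cycles in the B cell-primed samples. Round 3 stood apart, with 244 members below Ct 35 against 292 in round 1 and 284 in round 2. The control wells did not follow the same course. The small RNAs RNY3 and snoRD47 had median Ct values of 23.3, 28.3 and 26.8, and of 19.5, 23.2 and 21.8, both latest in round 2. The wells for the worm miRNA cel-mir-67 gave 18.5, 24.8 and 17.2, and the labels do not say whether that RNA was added. Control wells recur every 94 lines of the Ct table, and in the last of the 4 blocks of 94 lines they and the members came later: the members' median Ct there was 28.8, 31.1 and 32.9, and 68.8% of members were below 35 against 85.3% to 85.7% in the other blocks.

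Over the 242 members, mean levels ran from 13.35 for miR-34c to -6.08 for miR-369-5p, a span of 19.43 log2 units. The middle 50% of members lay between -2.02 and 1.72, with a median of -0.32, so a small number of assays stood far above the rest.

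miR-34c, a member of the p53-induced miR-34 family, ranked first in every round. Its raw Ct was 15.25, 15.26 and 14.54 in rounds 1, 2 and 3. These Ct values lie within 0.72 cycles of each other, although the median Ct of the 242 members was 26.3, 28.8 and 31.0 in the same samples. Its level was therefore 10.93, 13.20 and 15.92, with a mean of 13.35 ± 2.50 (SD, n = 3). Its share of the summed signal of the 242 members, taking signal as 2 to the power of the level, was 32.4%, 70.0% and 78.2%. The B cell-primed samples gave the same assay a Ct of 14.50, 15.54 and 15.04, so all 6 samples lay within 1.04 cycles and the DC-primed and B cell-primed values overlapped. The star strand of this hairpin, miR-34c*, had a Ct of 28.38, 27.12 and 30.11, and its relative miR-34a had 25.26, 29.03 and 28.14.

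miR-21, which is induced on T cell activation and represses Pdcd4, was second by mean level. Its Ct was 16.05, 21.09 and 17.54, which gave levels of 10.13, 7.37 and 12.92 and a mean of 10.14 ± 2.77 (SD, n = 3). It was lowest in round 2, where RNY3, snoRD47 and cel-mir-67 were also lowest. Of the 242 members, 26 had their latest Ct in round 2, 211 in round 3 and 5 in round 1, and among those 26 the gap to the next latest round was widest for miR-21, at 3.55 cycles, ahead of miR-210 at 3.24.

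The next places were held by a mixture of strands and lesser known miRNAs. let-7g*, the star strand of let-7g, had a Ct of 18.80, 18.08 and 18.86 and a mean level of 9.79 ± 2.17 (SD, n = 3). miR-709 had a Ct of 17.34, 19.88 and 19.40 and a mean level of 9.49 ± 1.36 (SD, n = 3). miR-326 followed at 18.66, 21.06 and 21.14 cycles, a level of 8.08 ± 1.07 (SD, n = 3). miR-709 and miR-326 had smaller SDs than the 3 members above them, and both were highest in round 3. miR-691 had a mean level of 7.80 ± 1.73, miR-7a* of 7.47 ± 1.88, miR-154 of 7.24 ± 2.73 and miR-139-3p of 6.41 ± 2.06 (SD, n = 3 each). Of these 4, miR-7a* and miR-139-3p are the less used strands of their hairpins in most tissues, and miR-154 comes from the imprinted Dlk1-Dio3 locus.

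miR-155, made from the Bic transcript after antigen receptor signalling and needed for CD8+ T cell responses, was number 10 by mean level and the most uneven of the 20 highest. Its Ct was 18.13, 20.04 and 27.88, and its level 8.05, 8.42 and 2.58, with a mean of 6.35 ± 3.27 (SD, n = 3). Its rank was 5 in round 1, 4 in round 2 and 46 in round 3. Its Ct in the B cell-primed samples was 20.79, 20.58 and 21.80, between the earlier and later values of the DC-primed samples.

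The rest of the 20 highest were miR-706, let-7a, miR-130b, miR-690, miR-668, miR-302d, miR-150, let-7e, let-7d and let-7i, with mean levels from 5.52 down to 4.34. let-7a, with a Ct of 19.90, 21.38 and 27.56, resembled miR-155 in being high in rounds 1 and 2 and low in round 3, with levels of 6.28, 7.08 and 2.90. miR-150, a lymphocyte miRNA that represses Myb and falls on activation, had levels of 5.53, 4.76 and 3.32, and its rounds differed less. miR-302d, best known from pluripotent stem cells, had a Ct of 23.94, 23.85 and 23.58. It lay within 0.55 cycles over all 6 samples.

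**Figure D1:**
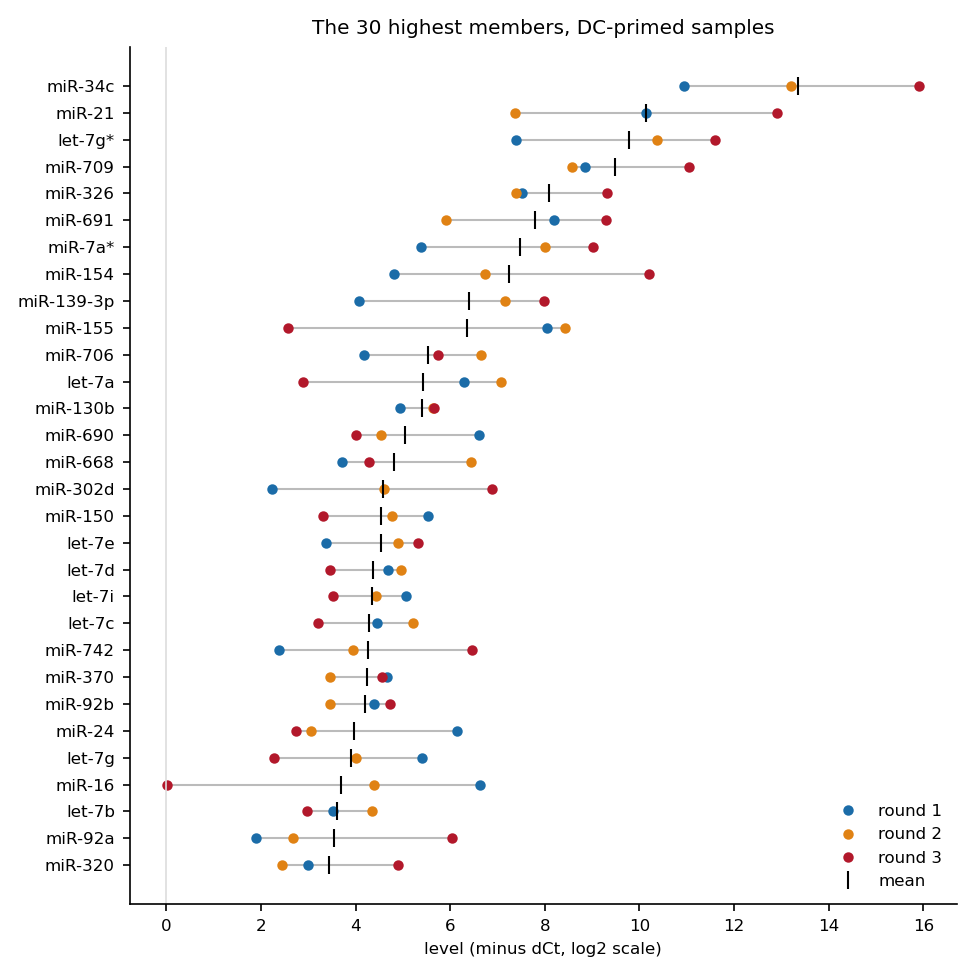
Level (minus dCt, log2 scale) of the 30 members with the highest mean level in the 3 DC-primed samples; points are rounds, ticks the mean and grey lines the range. miR-34c lies highest in each round, while miR-155, let-7a and miR-16 have a far lower point in round 3 than in rounds 1 and 2.

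The order below miR-34c was not fixed. Among the 19 pairs of neighbours in the 20 highest, only 2 kept their order in all 3 rounds, miR-34c over miR-21 and miR-709 over miR-326. The other 17 pairs changed order in at least 1 round, so the ranks within them are not resolved by these samples. Taking the 20 highest anew in each round named 36 members in all, of which 7 were in every round: miR-34c, miR-21, let-7g*, miR-709, miR-326, miR-691 and miR-7a*. Round 1 alone named 9, among them miR-16, miR-22, miR-24, miR-27a, miR-29a, miR-29c and miR-30b. Round 3 alone named 7, among them miR-16-1*, miR-214*, miR-742, miR-92a and miR-92b. Without round 3, the remaining rounds had 11 of their 20 highest in common, and without round 1, 13. Spearman correlations of levels across the 242 members were 0.83 between rounds 1 and 2, 0.79 between rounds 2 and 3 and 0.61 between rounds 1 and 3. They are descriptive, since the assays of a sample have the same RNA and the same per-sample number behind them.

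Signal was concentrated in few members. Over the 241 members also measured in every B cell-primed sample, the 10 highest of each sample held 78.2%, 92.6% and 98.9% of summed signal in rounds 1, 2 and 3, a mean of 89.9% ± 10.6 (SD, n = 3). The B cell-primed samples gave 86.3%, 81.8% and 90.6%, a mean of 86.2% ± 4.44 (SD, n = 3). The groups overlapped, and the difference of 3.64 percentage points did not exceed the spread between samples (exact two-sided permutation test, p = 0.6, where 3 against 3 samples allow no p below 0.1). The members compared had been limited by their Ct in the DC-primed samples alone. Assays early under B cell priming but late or missing in a DC-primed round, such as miR-106b and miR-142-3p, were left out of both totals. miR-34c was the first assay in all 6 samples. Without miR-34c, the 10 highest of the remaining members held 69.5%, 77.8% and 95.2% of the DC-primed signal.

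Between rounds, the level SD of a member had a median of 1.22 over the 242 members, with the middle 50% from 0.76 to 1.84. In all, 27 members, 11.2%, had an SD under 0.5, 50 members, 20.7%, had an SD over 2, and 165 lay between. An SD from 3 samples is itself uncertain: its 95% interval runs from 0.521 to 6.28 times the value. The variances were unequal over assays by limma's estimate, with 6.53 prior degrees of freedom and a prior SD of 1.37. Moderated by that prior, the SDs ran only from 1.20 to 2.22, so the order among the steadiest members has little support in these 3 samples. The count under 0.5 was 75 without round 3, 73 without round 1 and 42 without round 2, and the count over 2 was 40, 26 and 78.

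Distances from the group mean were taken over the 241 members measured in all 6 samples, which had been limited by Ct in the DC-primed samples alone. Each sample's median distance from its own group mean was 1.01, 0.514 and 1.00 in the DC-primed rounds. The B cell-primed rounds had 0.413, 0.406 and 0.425. All 3 DC-primed values lay above all 3 B cell-primed values, by 0.429 log2 units on average, and this gave the smallest p that the exact two-sided permutation test allows, 0.1. The 3 distances of a group are taken from their common mean, so 1 outlying round raises all of them. They are not independent values, and the test cannot tell 1 outlying round from a wider spread of the group. The difference was 0.217 without round 1, and without normalization it was 0.853 with an exact permutation p of 0.3, where the groups overlapped. The per-sample number, which moved by 4.27 cycles in the DC-primed and 1.28 in the B cell-primed samples, moved with this result, and its part was not tested.

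**Figure D2:**
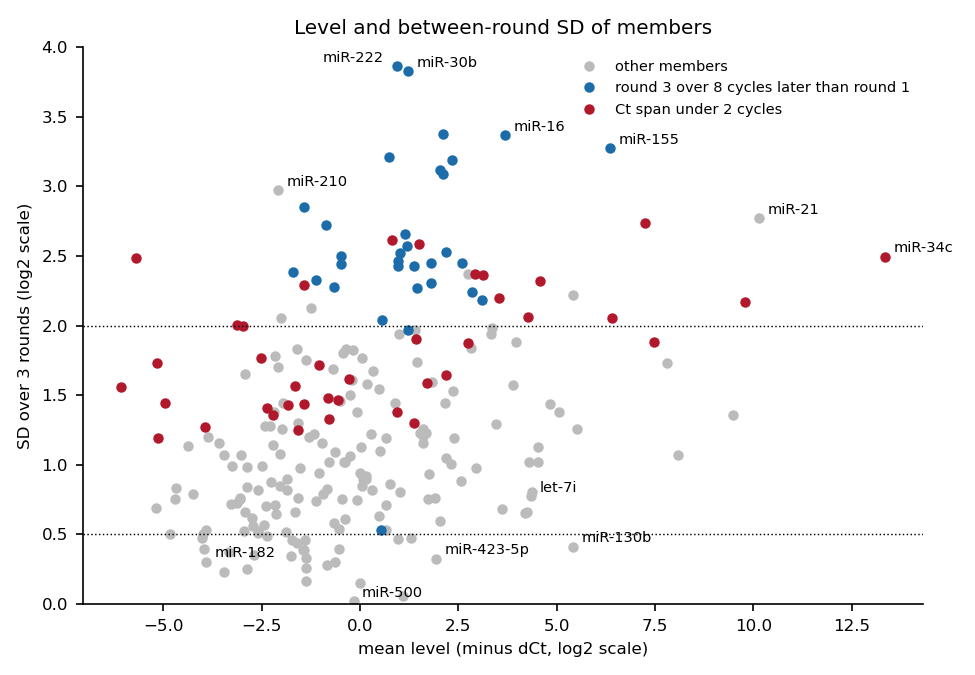
SD of the level over the 3 DC-primed rounds (log2 scale) against the mean level for the 242 members, with dotted lines at SDs of 0.5 and 2; red points are members whose Ct spans under 2 cycles and blue points members whose Ct is over 8 cycles later in round 3 than in round 1. The points above the upper line are mostly red or blue.

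The smallest SDs belonged to members of middling or low level. miR-500 had a Ct of 26.35, 28.60 and 30.64 and levels of -0.17, -0.14 and -0.18, an SD of 0.02 (n = 3). miR-669c, from the mouse Sfmbt2 intron cluster, had levels of 1.14, 1.07 and 1.03, an SD of 0.06 (n = 3). The other 8 of the 10 smallest were miR-324-3p, miR-200b*, miR-99b*, miR-296-3p, miR-30a*, miR-671-3p, miR-323-5p and miR-182, with SDs from 0.15 to 0.31. miR-182, which is induced by interleukin-2 in activated T cells and represses Foxo1, was among the low ones, at levels of -4.14, -4.03 and -3.56. These members' Ct values rose by nearly the same amount as the per-sample number, which is what a small SD records here. Among the 60 highest members the steadiest were miR-423-5p, with levels of 2.23, 1.59 and 2.01, and miR-130b, with 4.93, 5.64 and 5.66. miR-132, miR-92b, miR-370, let-7b, miR-345-5p, let-7i, let-7d and miR-712 followed, with SDs from 0.60 to 0.88.

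Of the 10 members with the largest SDs, all but miR-210 had their lowest level in round 3. miR-222, which represses the cell cycle inhibitor Cdkn1b, had a Ct of 21.63, 27.03 and 33.59 and levels of 4.55, 1.43 and -3.13, an SD of 3.87 (n = 3). miR-30b had a Ct of 20.67, 28.44 and 32.31 and an SD of 3.83, and miR-27a 20.40, 27.06 and 31.31 and an SD of 3.37 (n = 3 each). miR-16, which represses Bcl2, had a Ct of 19.55, 24.06 and 30.44 and levels of 6.63, 4.40 and 0.02. All 4 were highest in round 1 and lowest in round 3. miR-155, miR-15a, miR-22, miR-191 and miR-29c had SDs from 3.09 to 3.27. miR-210, the miRNA induced by hypoxia, went the other way: its Ct of 29.47, 32.71 and 29.15 gave levels of -3.29, -4.25 and 1.31, an SD of 2.97 (n = 3). Of the 50 members with an SD over 2, 25 were highest in round 1 and lowest in round 3, and 14 were highest in round 3 and lowest in round 1. Over all 242 members these counts were 66 and 72.

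Most of the 50 members with an SD over 2 lay toward one or other end of a continuous range of raw Ct change. A level is the per-sample number minus the Ct, so a large SD goes by construction with a Ct that moved unlike that number. From round 1 to round 3 the Ct of the 242 members changed by a median of 3.70 cycles, with the middle 50% between 2.33 and 6.30 and extremes of -1.12 and 11.96. At one end, 39 members, 16.1%, had Ct values within 2 cycles over the 3 rounds. At the other, 32 members, 13.2%, came more than 8 cycles later in round 3 than in round 1. The limits of 2 and 8 cycles were chosen after the values were seen. A Ct that did not change at all would have a level SD of 2.14 here, because the per-sample number moved by that much. Of the 50 members with an SD over 2, 30 were among the 32 steep ones, 14 among the 39 flat ones, and 6 were neither.

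**Figure D3:**
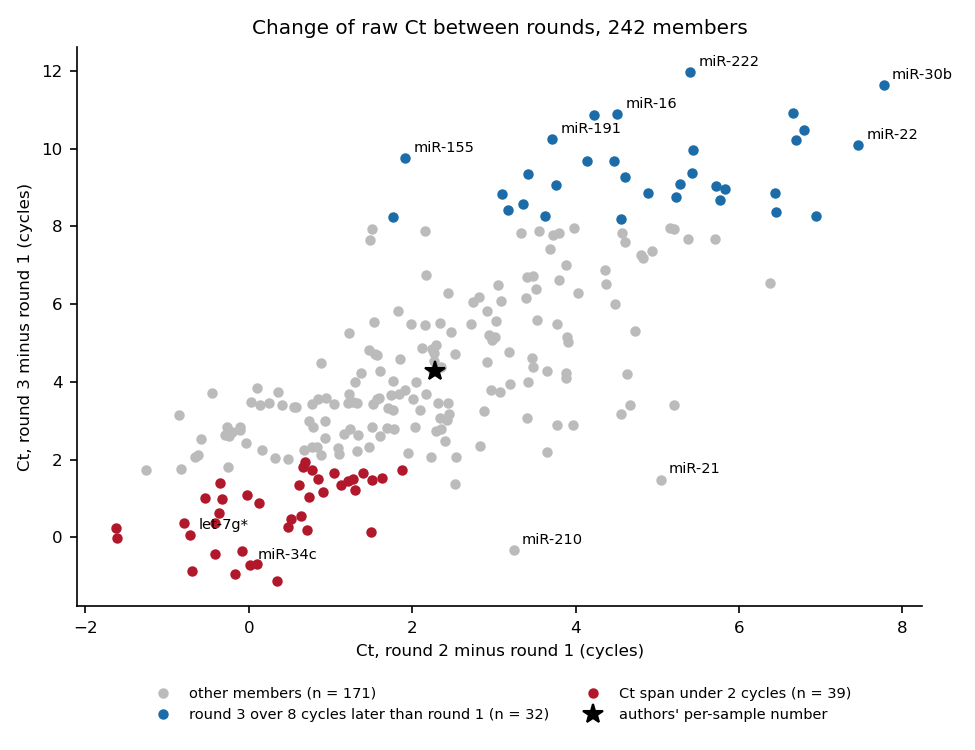
Raw Ct in round 2 minus round 1 (x axis, cycles) and in round 3 minus round 1 (y axis, cycles) for the 242 members; red points span under 2 cycles, blue points came over 8 cycles later in round 3, and the star is the authors' per-sample number. miR-34c and let-7g* lie near 0 on both axes, and miR-21 and miR-210 lie to the right of the main trend.

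The flat members had a median Ct of 28.1, 28.8 and 29.6 in rounds 1, 2 and 3, and the steep ones 22.2, 27.5 and 31.6. The steep members were thus earlier than the flat ones in rounds 1 and 2 and later in round 3. In the B cell-primed samples the flat members' median Ct was 26.7, 27.5 and 26.8, and the steep members' 24.3, 25.1 and 27.1. Of the 38 flat members measured in all 6 samples, 18 also stayed within 2 cycles over all 6. The flat group held 5 of the 10 highest members, miR-34c, let-7g*, miR-7a*, miR-154 and miR-139-3p, and also miR-302d of the 20 highest. It accounted for 37.0%, 84.5% and 85.2% of the summed signal in the 3 rounds, most of it miR-34c. The steep group accounted for 14.9%, 3.50% and 0.0298%, and miR-155 was its member among the 20 highest. Without the flat members, the 20 highest kept the 14 others and gained let-7c, let-7g, miR-16, miR-24, miR-370 and miR-92b, with miR-21 first. These flat assays were chosen for a small Ct span, so a smaller change than in the control wells follows from that choice. Where the signal of the flat assays comes from was not tested.

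Star strands were unevenly placed. Of the 242 members, 38, or 15.7%, were named with a star, against 13 of the 39 flat members, 33.3%, and 1 of the 32 steep members, 3.1%, which was miR-22*. The median Ct change from round 1 to round 3 was 2.29 cycles over the starred members and 3.80 over the 204 others. In 33 pairs of a starred assay and its unstarred counterpart both were below 35 in all 3 rounds. In 26 of these the change from round 1 to round 3, taken with its sign, was larger for the unstarred strand. The unstarred sequences of miR-16, miR-7a, miR-30c and miR-24 come from 2 hairpins each and their star strands here from 1. Those pairs are therefore not strictly 2 strands of one hairpin. The median change was 6.49 cycles for the unstarred strands and 2.33 for the starred ones. Members must stay below 35, so an assay already late in round 1 had too little room left to be steep. Across the 242 members, the Ct in round 1 and the change to round 3 had a Spearman correlation of -0.48. Many starred assays of the pairs were late in round 1, such as miR-30c-1* at 31.25, and some early, such as let-7g* at 18.80. The part of the Ct limit in these contrasts was not tested.

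miR-16, at 19.55, 24.06 and 30.44 cycles, and miR-16-1*, at 25.23, 25.87 and 25.77, were furthest apart: the guide came 10.89 cycles later in round 3 and the star strand 0.54. In rounds 1 and 2 the guide was the earlier of this pair and in round 3 the star strand was. let-7g, at 20.77, 24.46 and 28.19, changed by 7.42 cycles, and let-7g*, at 18.80, 18.08 and 18.86, by 0.06. Here the star assay was the earlier in each round. miR-7a, miR-26b and miR-30c had changes of 8.28, 9.34 and 7.67 cycles against 0.63, 1.21 and 0.27 for miR-7a*, miR-26b* and miR-30c-1*. In 10 of the pairs the unstarred strand's change was over 5 cycles larger. The exceptions included miR-200a, at 2.15 cycles against 5.82 for miR-200a*, and miR-378, at 3.24 against 6.62. miR-22 and miR-22* changed alike, by 10.09 and 8.96 cycles.

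**Figure D4:**
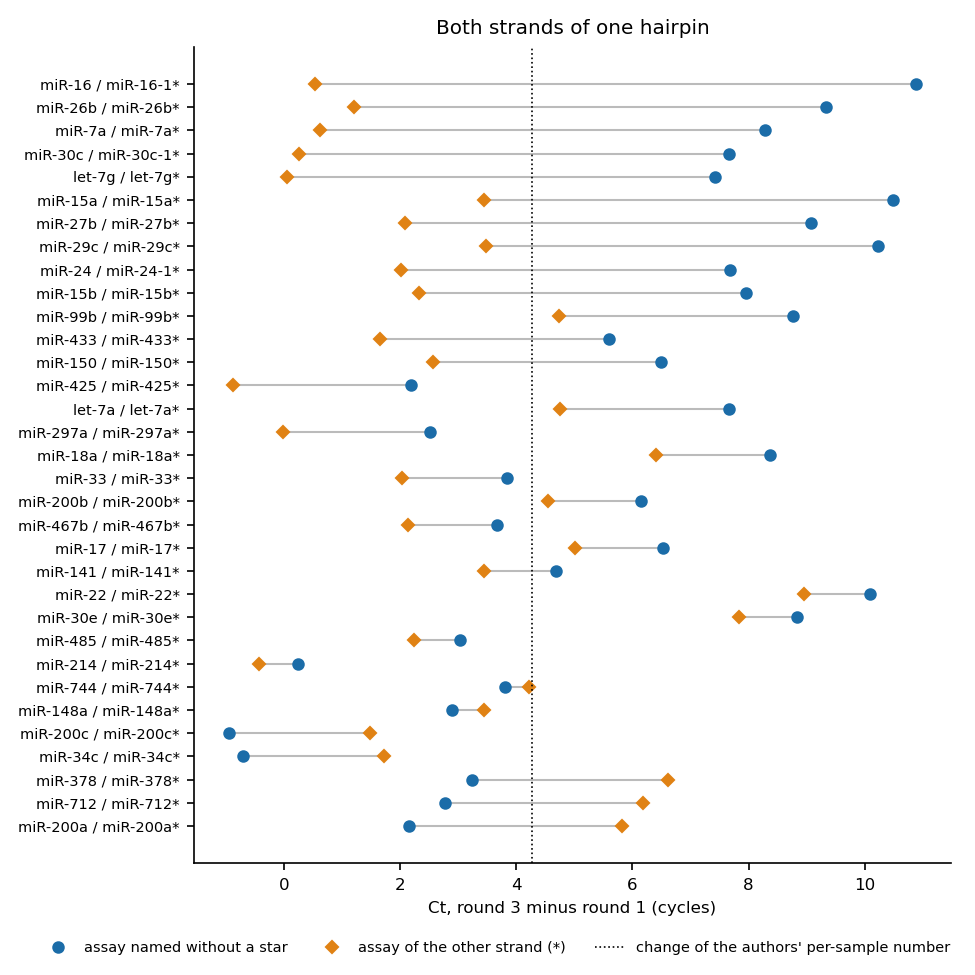
Change of raw Ct from round 1 to round 3 (cycles) for the unstarred (circle) and starred (diamond) assay of 33 pairs with both assays below Ct 35, ordered by the difference. The dotted line is the change of the authors' per-sample number, 4.27 cycles. The circle lies to the right of the diamond in 26 of the 33.

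Among the listed families with at least 3 members below 35, let-7 had the highest median level. Its members share a seed and restrain proliferation and effector function in T cells. Of 9 measured members 8 were below 35 in all rounds, with levels from 5.42 for let-7a to 2.74 for let-7f and a median of 4.32, against -0.32 over all 242 members. let-7e was highest in round 3, with levels of 3.38, 4.89 and 5.33, and let-7f was near 0 there, with levels of 3.70, 4.47 and 0.04. Each of these sequences differs from let-7a at 1 base, yet their Ct changed by 2.33 and 7.94 cycles between rounds 1 and 3. The ninth member, miR-98, came late in round 3, at 25.40, 27.77 and 35.25 cycles. The family's summed signal was 3.92%, 2.33% and 0.118% of the total. As a level, the log2 of that sum was 7.89, 8.29 and 6.54, highest in round 2. The shares fell more steeply because they also depend on the total, most of which was miR-34c in rounds 2 and 3.

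Several families had median SDs well above the 1.22 of all members. The miR-15/16 family had 5 of 5 measured members below 35, with a median SD of 2.85 and a median Ct change of 9.96 cycles, against 3.70 over all members. Its summed signal was 2.45%, 0.312% and 0.0133% of the total, and the log2 of that sum was 7.21, 5.39 and 3.39. miR-29, which represses Tbx21, Eomes and Ifng, had 3 of 3, with a median SD of 1.97 and Ct changes from 7.94 to 10.22 cycles. miR-30 had 4 of 5, with a median SD of 2.30. Its remaining member, miR-30a, had a Ct of 41.62, 44.31 and 29.67 here, while B cell-primed rounds gave 42.30, 44.61 and 26.55. In both groups that assay was late in rounds 1 and 2 and early in round 3. The 2 members of miR-26 had a median SD of 2.55. The miR-23/27/24 clusters had 5 of 5, with a median Ct change of 9.67 cycles, and 4 of them were steep, as were 32 of all 242 members, 13.2%.

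The deposited dCt of miR-23a and miR-23b could not be obtained from their Ct. miR-23a had a Ct of 19.66, 23.80 and 29.33, which with the per-sample number gives a mean level of 4.10, while the deposited dCt gives 1.44 ± 2.27 (SD, n = 3). miR-23b had a Ct of 22.14, 26.36 and 33.00, which gives 1.20, against 0.53 ± 0.53 (SD, n = 3) from the dCt. By its dCt miR-23b was among the steadier members and by its Ct it was steep, so its stability depends on the table read. Their place in the ranking is uncertain.

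The miR-17/92a cluster and its paralogs, which promote proliferation, had 13 of 14 members below 35, a median level of 0.51 and a median SD of 1.22. miR-92b was the highest at 4.20 ± 0.65 and miR-106a the lowest at -4.24 ± 0.79 (SD, n = 3 each). miR-17 had levels of 3.04, 0.95 and 0.80, and miR-20a 3.65, 1.10 and 0.73. miR-92a stood apart from those, with a Ct of 24.28, 25.78 and 24.42 and levels of 1.9, 2.68 and 6.04, the highest in round 3. The 14th member, miR-106b, had a Ct of 42.51 in round 1 but 24.89 and 27.75 in rounds 2 and 3.

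Other families lay lower or varied less. The family of miR-148a, miR-148b and miR-152 had a median level of 0.48 and a median SD of 0.47, and 2 of the 3 had an SD under 0.5, as did 27 of all 242 members, 11.2%. The miR-181 family, which tunes receptor sensitivity in developing T cells, had 4 members with a median level of -1.39. They ran from 2.96 for miR-181b to -2.43 for miR-181d, and miR-181a had levels of 1.94, -0.38 and -3.05. The imprinted Dlk1-Dio3 locus, a large cluster silent in many adult tissues, had 26 of 29 measured members below 35, with a median level of -1.65. Of these, 8 were flat, 30.8% against 16.1% of all members, with miR-154 far above the others. The median level of the locus in round 1 was -2.72, against -0.12 over all members. The limit of 35 left such late assays less room to move, and its part here was not tested.

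**Figure D5:**
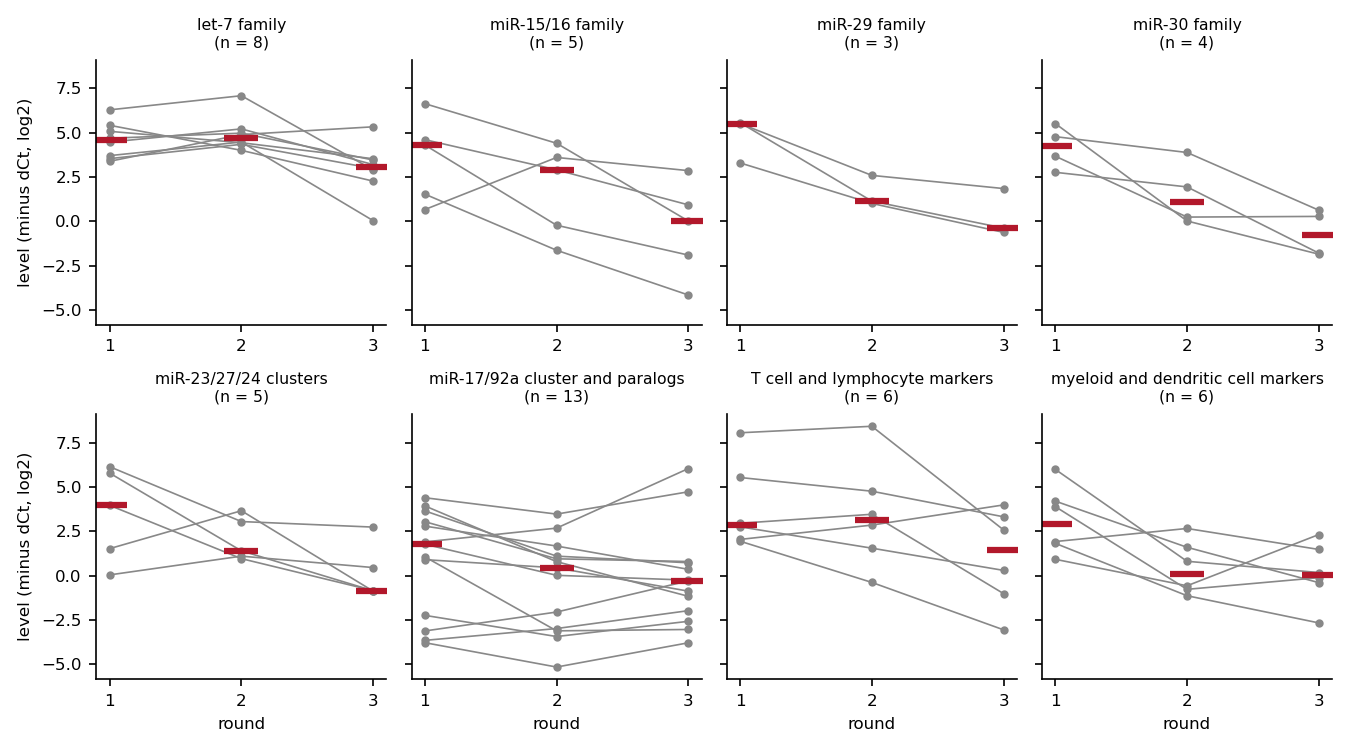
Level (minus dCt, log2 scale) in rounds 1, 2 and 3 of the members below Ct 35 of 8 lists; each grey line joins the values of one assay and red bars are list medians. The rounds are replicates, so the lines mark which values belong together. The miR-15/16, miR-29 and miR-30 lists are lowest in round 3, and the let-7 list has its medians of rounds 1 and 2 above that of round 3.

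MicroRNAs known to change on T cell activation were present from both sides. Of the list raised by activation, 17 of 20 measured members were below 35, with a median level of 1.19 and 8 of the 17 with an SD over 2, which 50 of all 242 members, 20.7%, had. It ran from miR-21 at 10.14 to miR-182 at -3.91. Of the list lowered by activation, 24 of 25 were below 35, with a median level of 2.34, an SD over 2 in 11 and a median Ct change of 7.81 cycles, against 3.70 over all members. It ran from let-7a at 5.42 to miR-342-3p at -3.32. The medians of both lists lay above the -0.32 of all members, and no comparison with resting T cells is part of the series.

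Markers of lymphocytes were detected. Of 7 listed, miR-142-5p, miR-146a, miR-150, miR-155, miR-181a and miR-181b were below 35 in all rounds, with a median level of 2.38. miR-142-3p, which is specific to blood cells, had a Ct of 19.06 and 25.87 in rounds 1 and 2 and none in round 3, and so was no member. The other strand, miR-142-5p, had 23.43, 26.91 and 30.16. The 6 members held 5.54%, 2.91% and 0.0425% of the summed signal. The log2 of their own sum was 8.38, 8.61 and 5.07, so it did not fall from round 1 to round 2 as the share did. None of these is particular to CD8+ T cells, so the labelled cell type cannot be checked from them alone.

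Markers of myeloid and dendritic cells differed between rounds as well. Of 9 listed, 8 were measured and 6 were below 35 in all rounds: miR-22, miR-125a-5p, miR-132, miR-147, miR-34a and miR-99b. Those 6 summed to 1.76%, 0.0954% and 0.0136% of the signal in rounds 1, 2 and 3, while under B cell priming they made up 0.0618%, 0.112% and 0.0750%. By share, round 1 lay above the B cell-primed range, round 2 within it and round 3 below it. By summed level, the log2 of their summed signal, the order differed. It was 6.73, 3.68 and 3.42 in the DC-primed rounds and 2.22, 2.67 and 2.73 in the B cell-primed rounds. On that scale every DC-primed round lay above every B cell-primed round. A share also depends on the total, to which miR-34c gave the most. A level depends on the per-sample number, which was 30.46 cycles in DC-primed round 3 against 26.35 to 27.63 in the B cell-primed samples. In raw Ct, each of these 6 markers came later in DC-primed round 3 than in any B cell-primed sample. The remaining 2 were early in round 1 and late in round 3. miR-223, the defining myeloid miRNA, had a Ct of 20.82, 27.23 and 36.99, against 32.14 to 32.67 under B cell priming. miR-146b had 21.46, 24.36 and 38.77, against 27.60 to 31.85 under B cell priming. Of the 6, miR-22, miR-147, miR-99b and miR-125a-5p were themselves steep members, while miR-132 and miR-34a were not. From round 1 to round 3 the Ct of miR-132 changed by 4.72 cycles and that of miR-34a by 2.88. miR-34a had levels of 0.92, -0.57 and 2.32, the highest in round 3. The part of the listed markers in the difference between rounds was not tested. More dendritic cells in a sample and more of these miRNAs per cell cannot be told apart.

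Markers of other sources were mostly low. In the stromal and endothelial list, 6 of 7 measured members were below 35, with a median level of -1.97 and summed signal between 0.00393% and 0.0618% of the total. The erythroid miR-486 and miR-451 had mean levels of 0.93 and -1.64. The B cell list had 3 measured members, miR-150, miR-148a and miR-34a, with a median level of 0.89, and miR-150 and miR-34a also stand in the lymphocyte and myeloid lists. Among 6 measured markers of other tissues, miR-302d was the highest at 4.58 and the other 4 below 35 had negative mean levels down to -3.88 for miR-1. miR-9, a miRNA of neurons also induced in stimulated myeloid cells, had a Ct of 24.72, 30.15 and 38.10.

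The 56 late members were late mainly in round 3. In 41 of them only the round 3 sample was at 35 or beyond, in 1 only the round 1 sample (miR-106b), in 10 exactly 2 samples, and in 4 all 3 samples: miR-125b-3p, miR-411, miR-671-5p and miR-688. The 41 had a median Ct of 29.9, 32.8 and 36.8 in rounds 1, 2 and 3, so most were clearly detected elsewhere. Just inside the limit, by latest Ct, were miR-204 at 34.78, miR-495 at 34.86, miR-382 at 34.88, miR-18a* at 34.91 and miR-369-5p at 34.92. Just outside were miR-144 at 35.02, miR-20b* at 35.04, miR-140 and miR-183 at 35.22 and miR-98 at 35.25. The 8 mouse-named assays without a Ct in all 3 samples were miR-340-3p, miR-1197, miR-199a-5p, miR-302b, miR-107, miR-193*, miR-142-3p and miR-700. Of these, 5 lacked a value in round 3 alone.

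Seeds were shared by part of the repertoire. Among the 197 members with a sequence, 26 seeds occurred in 2 or more members and 8 in 3 or more. The let-7 seed GAGGUAG had 8 members, the miR-15/16 seed AGCAGCA and the miR-17 seed AAAGUGC 5 each, and the miR-25/92 seed AUUGCAC and the miR-181 seed ACAUUCA 4 each. Members with one seed did not have one Ct change: within AGCAGCA it ran from 2.08 cycles for miR-195 to 10.89 for miR-16, and within AUUGCAC from 0.14 for miR-92a to 6.71. The median GC content was 42.8% over the 26 steep members with a sequence, 48.9% over the 34 flat ones and 47.8% over all 197. Across those 197 members the Spearman correlation of GC content with the Ct change was -0.16 and with the level SD -0.27, given as a description without a test.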

How the data were processed

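MicroRNA levels were measured by SYBR Green RT-PCR in 6 samples, 3 DC-primed and 3 B cell-primed. Per the labels' protocols, RNA was given a poly(A) tail, reverse transcribed, and amplified with one miRNA-specific forward primer, so near-identical miRNAs can share signal. Per the file headers, the authors deposited raw Ct values and, made from them, dCt values. The deposited dCt values are log2 values of reversed sign, which the authors made by subtracting from each Ct a number per sample, named in the file headers as a geometric mean of Ct. The 2 table names state the reverse of their headers; the values match the headers. How Ct was called is not given in these sources.

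Here level is minus the deposited dCt. miR-688 and miR-671-5p had no dCt, and their level was taken from Ct. Signal is 2 to the power of the level. SD is over the 3 rounds. Inequality of variances was estimated with limma 3.58.1 in R 4.3.3 (intercept only, eBayes), checked on simulated data. Single values per sample were compared with exact permutation tests. Rounds were taken as pairs only in an alternative. Named miRNAs are the 20 highest, the 10 smallest and 10 largest SDs (also among the 60 highest), the highest and lowest of each list, those nearest Ct 35, those whose tables disagree by more than 0.02 cycles, and a set of known T cell miRNAs. Strand pairs, steep and flat members and other list members were named after their values were seen. The members and the 27 lists were chosen with earlier results of these data known. Alternatives covered normalization, Ct limit, amplification per cycle, table, rounds left out, and pairing. Centring by blocks of lines, leaving out flat members and all alternatives for the inequality of variances were added after seeing the data. Figures were drawn with matplotlib 3.10.9.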

Additional observations from a re-analysis of the deposited data

How the results depend on the processing

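The 20 highest members were the same 20 under every normalization and Ct limit tried. Part of this was fixed in advance. A shift of all levels of a sample cannot reorder mean levels, so normalizations of that kind could not test the ranking. The latest Ct among the 20 was 27.88, earlier than every limit tried, so no limit could remove any of them. Looser limits could have let other members in and did not. Quantile normalization, which is not such a shift, could change the order and kept the same 20. The 20 highest shared 16 members with those found without round 1 or without round 2, and 18 without round 3. They shared 18 with blocks of lines centred and 14 without flat members. The mean share of the 10 highest ran from 80.8% to 95.7% and the difference from the B cell-primed samples stayed positive, from 0.0401 to 9.64 percentage points. The difference was 0.0401 without round 2 and 0.853 without round 3. A shift of all levels of a sample leaves its shares as they were, so normalizations of that kind could not test the sign. With the round as a replicate block, the share difference of 3.64 had an exact paired p of 0.5. The difference in spread of 0.429 had one of 0.25, the smallest that 3 pairs allow, and its distances are not independent within a group.

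Measures of spread changed with the normalization, the Ct limit and the rounds used. Without normalization the median SD was 2.01, with 12 members under 0.5 and 122 over 2. Scaling to RNY3 and snoRD47 gave 2.13, 6 and 138 for these values. A Ct limit of 32 left 157 members, 14 under 0.5 and 33 over 2, and no limit gave 79 over 2. Leaving out 1 round gave a median SD from 0.794 to 1.37, 42 to 75 members under 0.5, 26 to 78 over 2, and 7 to 13 members among the 20 highest of each round kept.

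The prior degrees of freedom for the variances, 6.53 as reported, were 11.5 with blocks centred, 3.62 with no Ct limit, 10.6 without normalization, 1.74 after quantile normalization and 18.0 without round 3. No finite value was obtained without round 1, without round 2 or after scaling to RNY3 and snoRD47, so under those settings unequal variances were not detected. The causes were not tested. For the 91 named members, the mean level relative to the median member was taken under the alternatives. Of 1063 such values, 957 moved by less than 1 SD and 106 by more. Part of this was fixed in advance, since a shift of all levels of a sample cannot move this value. Centring on the median therefore moved 0 of the 91. Leaving out normalization, taking levels from Ct and scaling to RNY3 and snoRD47 moved 2 each.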
